A study of Mus musculus with 16 samples.

Results

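The response of muscle to cachexia was compared between the C26 and the LLC mouse models, as the change from control to cachectic muscle in C26 minus the same change in LLC. The groups compared hold 8 of the 16 libraries of the series: 2 control and 2 cachectic libraries of each model. All came from snap-frozen tibialis anterior, which lies at the front of the shin and is mostly of fast fibres, and held total RNA depleted of ribosomal RNA. C26 controls and C26 cachectic mice carried the strain label CD2F1, a hybrid of BALB/c and DBA/2, and LLC controls and LLC cachectic mice the label C57BL/6J. In cachexia research C26 names a colon carcinoma line and LLC the Lewis lung carcinoma line, each of which wastes the mouse that bears it. The labels give only the model, the condition, the strain and the tissue. The sources used here do not give the age or sex of the mice, how the tumours were started, the stage of wasting or the time of day of collection. Model and strain therefore cannot be told apart, and each model was compared with controls of its own strain. The labels do not state that the 2 libraries of a group are separate animals, so p-values measure only the spread between these samples. The other 8 libraries, 2 control and 2 cachectic ones each of the models KPP (strain label C57BL/6J) and KPC (strain label mixed), entered the same fit and so help set the estimate of spread behind every p-value. KPP responses are also set once beside those of C26 and LLC.

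In cachexia, tumour and host cytokines, glucocorticoids, activins and reduced feeding act on muscle. Signalling through STAT3 induces acute-phase genes in muscle, FoxO factors induce the ubiquitin ligases Fbxo32 and Trim63 that mark protein breakdown, and insulin-like growth factor 1 opposes it. Muscle also has a circadian clock, in which the activators Arntl and Clock drive their own repressors and many metabolic genes through E-box sequences, so that levels of these genes depend on the time of day and on feeding. Between the fibres lie fibroblasts, vessels, macrophages and, at the ends, tendon cells, which make most of the collagen matrix.

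The 8 libraries held 29933182 to 42462854 reads over 12021 listed genes, and values below are log2 counts per 1000000 reads (log2 CPM) with n = 2 libraries per group. Myh4, the myosin of the fastest fibres, was at 15.37 to 16.02 in the 8 libraries. The LLC cachectic libraries stood apart from each other. The SD of the log2 difference between replicates over genes was 0.561 in LLC cachectic muscle, against 0.346 in C26 cachectic muscle, 0.254 in LLC controls and 0.239 in C26 controls. Mitochondrially encoded genes took 12.36% to 13.04% of the reads in the controls of both models, 7.21% and 8.04% in C26 cachectic muscle and 7.97% and 8.91% in LLC cachectic muscle. The median gene was higher in cachectic than in control libraries by 0.28 in C26 and by 0.10 in LLC, so the median response difference was 0.17. Values were therefore also centred on the median of each library, which leaves the median response difference at -0.00735. The controls themselves differed in 444 of 12021 genes (3.69%, limma, adjusted p under 0.05).

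Most genes changed in the same direction in both models, and the response difference was called for few single genes. C26 cachexia changed 3409 genes (28.4%), of which 2794 rose (23.2%) and 615 fell (5.12%). LLC cachexia changed 851 (7.08%), of which 411 rose (3.42%) and 440 fell (3.66%). After centring, C26 changed 1952 genes (16.2%), with 840 rising (6.99%) and 1112 falling (9.25%). LLC then changed 1007 (8.38%), with 433 rising (3.60%) and 574 falling (4.77%). The counts of listed genes that rose or fell, given below, are to be read against these shares. After centring, 72.5% of all genes had the same sign of response in both models. Of the 419 genes called in both on deposited values, 407 moved the same way. Across all genes the C26 and LLC responses correlated with r = 0.652, a description over genes, which are not independent replicates. The response difference was called for 14 genes (0.116%), all 14 higher in C26 and 0 lower, by limma over all genes, while 1646 genes (13.7%) had an unadjusted p under 0.05, 1417 higher (11.8%) and 229 lower (1.90%). On median-centred values limma called 0 genes, with 1315 genes (10.9%) at an unadjusted p under 0.05, 703 higher (5.85%) and 612 lower (5.09%), and the 14 genes had adjusted p between 0.0572 and 0.103. At an adjusted p under 0.10, 111 genes were called on deposited values (98 higher and 13 lower in C26) and 32 on centred values (21 higher and 11 lower), all 32 among the 111. Fitting only the 8 C26 and LLC libraries called 0 genes, with adjusted p of the 14 from 0.0706 upwards, and library weights called 3. Voom weights on the recovered reads gave 27 calls, all higher in C26.

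**Figure D1:**
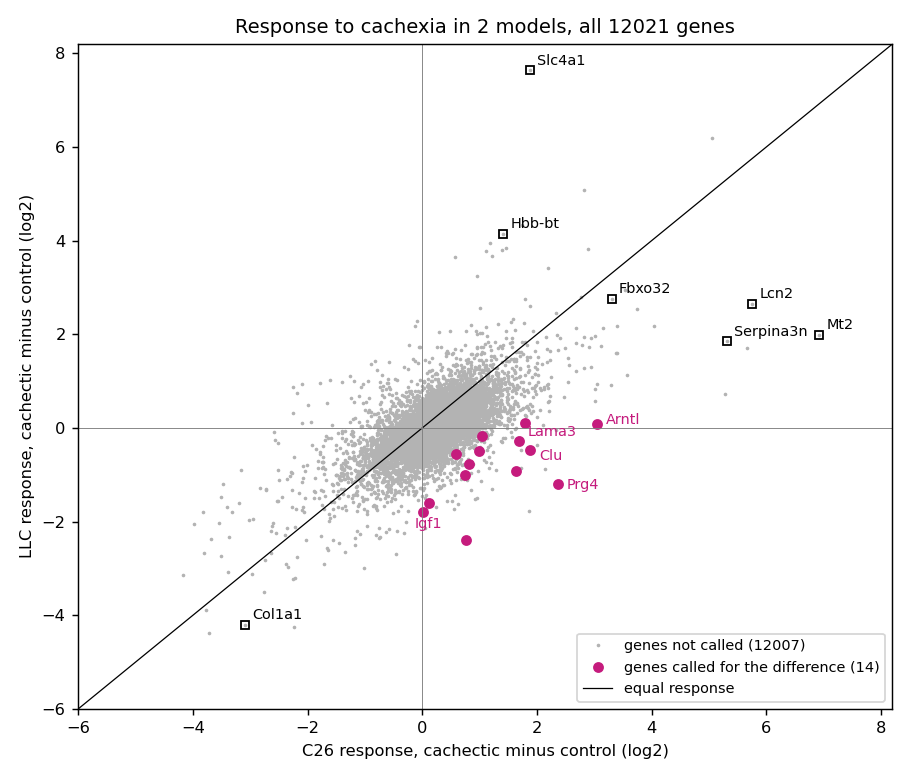
Cachectic minus control change (log2 CPM) of all 12021 genes in C26 (horizontal) and LLC (vertical); the diagonal marks equal responses, coloured points are the 14 genes called for the response difference, and squares are further named genes. Most genes lie along the diagonal, the 14 called genes lie below it, Mt2 and Serpina3n lie far to the right and Slc4a1 and Hbb-bt lie above it.

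The count depended on single libraries. It was 309 without LLC cachectic 1 and 194 without LLC cachectic 2, with all 14 genes still called each time. It was 0 without either C26 control or either LLC control, 3 without C26 cachectic 1 and none of the 14 among them, and 12 without C26 cachectic 2 with 7 of the 14. Where a group is left with 1 library, that library is assumed to vary like the other groups.

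The 14 genes had in common that the C26 response lay above the LLC response in every pairing of libraries, which on deposited values also held for 26.1% of all genes, and its opposite for 5.81%, and after centring for 13.4%, and its opposite for 13.2%. In 12 of the 14 the responses had opposite signs. The C26 response alone was called in 8, the LLC response alone in 3 (Adamtsl5 and Igf1 among them), and both, with opposite signs, in Chid1, Jade1 and Smtnl1. Of the 14, 12 were called higher in C26 cachectic than in LLC cachectic muscle. Of all 12021 genes, 2416 were called there (20.1%), 2040 of them higher in C26. In controls 5 of the 14 were called lower in C26 than in LLC, beside 205 of all genes. The response difference equals the cachectic difference between models minus the control difference. Picking genes by a high response difference therefore favours these calls and responses of opposite sign, and their counts are no separate evidence. The response of KPP muscle lay nearer to that of LLC in 10 of the 14 and nearer to that of C26 in 4. The 14 were picked by their C26 and LLC values, and the same share over all genes was not counted. Likeness between the models therefore cannot be read from these counts. Reads from overlapping genes cannot be told apart where counting ignores strand, and the sources used here do not say whether it did. In the GENCODE annotation 8 of the 14 overlap a gene on the opposite strand (Arntl, Lama3, Prg4, Chid1, Igf1, Gpr146, Jade1 and Gm10605), and in 4 of them (Prg4, Chid1, Gpr146 and Gm10605) that gene is in the table.

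**Figure D2:**
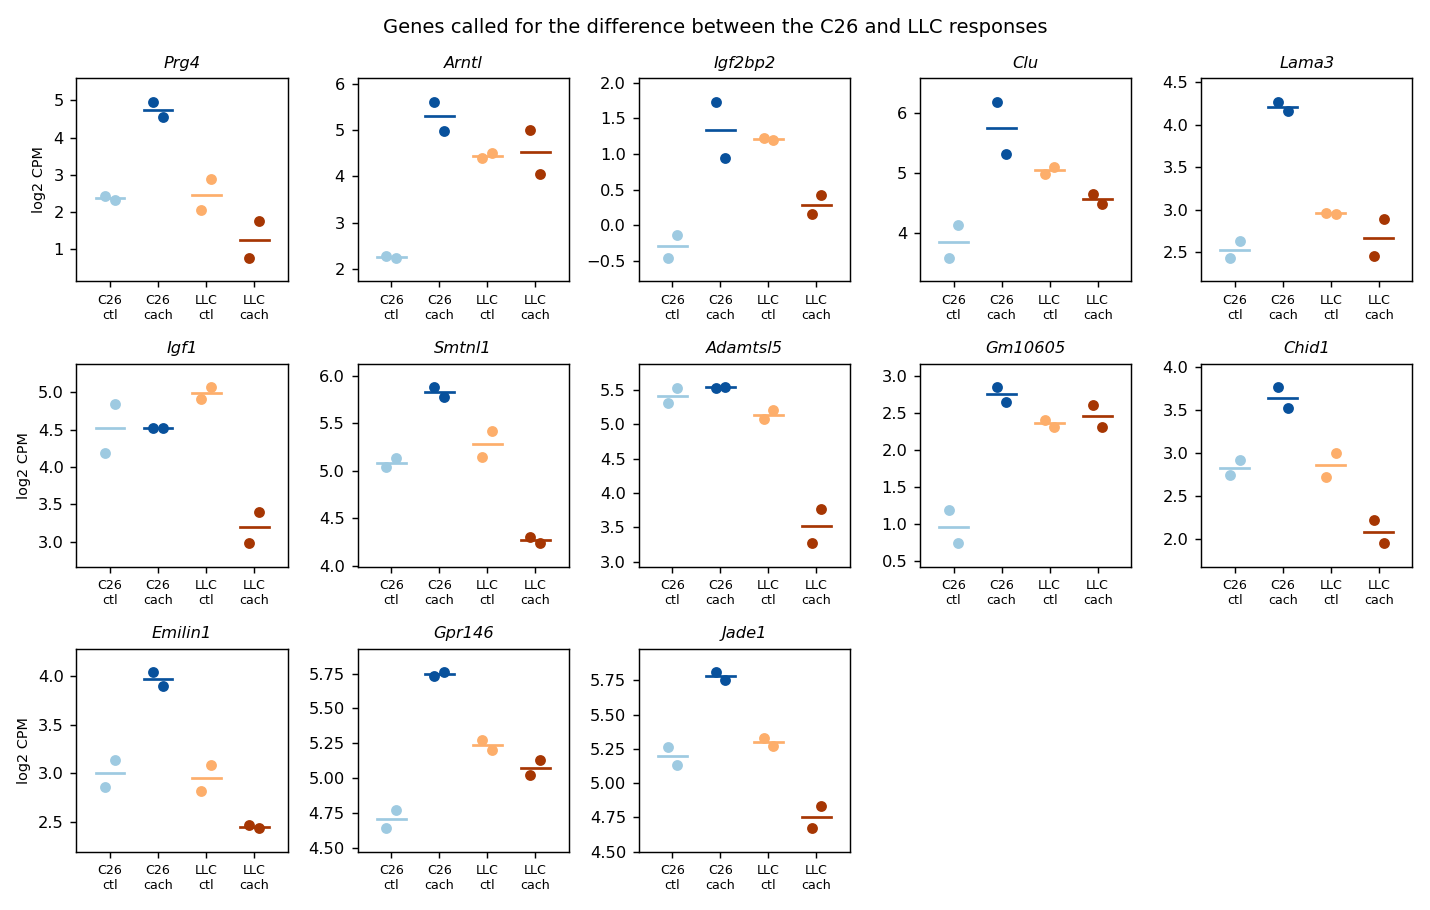
Log2 CPM of 13 of the 14 genes called for the response difference, in the 2 libraries (points) and the mean (bar) of C26 control, C26 cachectic, LLC control and LLC cachectic muscle. Vertical axes differ between genes and do not start at 0; in Prg4, Lama3, Emilin1 and Chid1 the controls of both models lie together and the cachectic groups apart, whereas in Arntl, Gm10605 and Igf2bp2 the C26 controls lie lowest.

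Among genes of growth factor signalling, Igf1, which encodes insulin-like growth factor 1, was at 4.19 and 4.84 in C26 controls, 4.52 and 4.52 in C26 cachectic, 4.91 and 5.07 in LLC controls and 2.98 and 3.40 in LLC cachectic muscle. It fell in LLC (-1.80 ± 0.21, SE, adjusted p = 0.00319) and was 0.01 ± 0.21 in C26, a response difference of 1.81 ± 0.30 (adjusted p = 0.0465). Igf1 occupies bases 87858265 to 87937042 of chromosome 10 on the plus strand (GRCm38). Igf2bp2, an RNA-binding protein that takes Igf2 mRNA among its targets, rose in C26 (1.63 ± 0.29) and was -0.92 ± 0.29 in LLC, with 28 to 130 reads per library. Its C26 controls were lower than its LLC controls (adjusted p = 0.0117).

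Of the secreted and matrix proteins, Prg4, which encodes the lubricating proteoglycan lubricin, was at 2.44 and 2.34 in C26 controls, 4.96 and 4.55 in C26 cachectic, 2.05 and 2.88 in LLC controls and 0.77 and 1.76 in LLC cachectic muscle. The C26 libraries did not overlap between control and cachectic muscle, nor did those of LLC, in the opposite direction. Prg4 rose in C26 (2.36 ± 0.38) and was -1.20 ± 0.38 in LLC (adjusted p = 0.0684), so that its response difference was 3.56 ± 0.53 (adjusted p = 0.0245), an 11.8-fold ratio of the responses. Prg4 occupies bases 150449412 to 150466165 of chromosome 1 on the minus strand. Lama3, the laminin alpha chain of epithelial basement membranes, was at 2.43 and 2.63, then 4.27 and 4.16 in C26, and at 2.96 and 2.95, then 2.45 and 2.89 in LLC, controls before cachectic. Only the C26 cachectic pair stood out, and the response difference was 1.97 ± 0.27. Emilin1, an elastic-fibre glycoprotein that restrains TGF-beta, rose in C26 (0.98 ± 0.16) and was -0.50 ± 0.16 in LLC (adjusted p = 0.0654). Adamtsl5, a secreted protein that binds fibrillin, was at 5.31 to 5.54 in the 4 C26 libraries and went from 5.07 and 5.20 in LLC controls to 3.27 and 3.77 in LLC cachectic muscle. Adamtsl5 fell in LLC (-1.61 ± 0.16) and was 0.11 ± 0.16 in C26. Clu, the extracellular chaperone clusterin, was at 3.59 and 4.13 in C26 controls, 6.18 and 5.31 in C26 cachectic, 4.99 and 5.10 in LLC controls and 4.65 and 4.48 in LLC cachectic muscle. It rose in C26 (1.89 ± 0.27), from controls that were lower than those of LLC (adjusted p = 0.0254). Chid1, a secreted chitinase-domain protein, rose in C26 (0.81 ± 0.16) and fell in LLC (-0.78 ± 0.16).

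The other called genes act inside the cell or at its membrane. Smtnl1, a smoothelin-like protein of muscle that binds tropomyosin and modulates contraction, was at 5.04 and 5.13 in C26 controls, 5.88 and 5.78 in C26 cachectic, 5.15 and 5.42 in LLC controls and 4.30 and 4.24 in LLC cachectic muscle. It rose in C26 (0.74 ± 0.20) and fell in LLC (-1.01 ± 0.20), and no library of either cachectic pair overlapped its controls. Jade1, a scaffold of a histone acetyltransferase complex, rose in C26 (0.59 ± 0.12) and fell in LLC (-0.55 ± 0.12). After centring the C26 rises of Jade1 and Smtnl1 missed the threshold (adjusted p = 0.0583 and 0.0584). Gpr146, an orphan G protein-coupled receptor, rose in C26 (1.04 ± 0.12) and was -0.16 ± 0.12 in LLC. The predicted gene Gm10605 rose in C26 (1.78 ± 0.19), from controls that were lower than those of LLC (adjusted p = 0.000818), to a pair of libraries above every other, with a mean 0.29 above that of LLC cachectic muscle (adjusted p = 0.281).

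A further 9 genes were called in both models with opposite signs although the response difference itself was not called. Of these, 8 rose in C26 and fell in LLC, with response differences from 1.11 for Srebf2 to 2.52 for Hectd2os, an antisense transcript, and adjusted p from 0.0506 for Nagk and Thap2 to 0.0766 for Col4a2. They included Vcan, the proteoglycan versican (0.95 ± 0.31 in C26, -1.50 ± 0.31 in LLC), Col4a2, a basement membrane collagen chain (0.63 ± 0.20, -0.75 ± 0.20), Srebf2, the factor that drives cholesterol synthesis genes (0.40 ± 0.14, -0.71 ± 0.14), and Trpm3, a cation channel (0.71 ± 0.23, -1.01 ± 0.23). Centring ended the C26 call of each of the 8, with adjusted p from 0.0505 for Thap2 to 0.44 for Srebf2, and left their LLC calls. Acvr1b, a type I receptor for activin and myostatin, went the other way (-0.74 ± 0.26 in C26, 0.97 ± 0.26 in LLC, adjusted p of the difference 0.0801).

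The circadian clock held 1 of the 14 called genes, its activator. Arntl, the clock activator BMAL1, was at 2.27 and 2.23 in C26 controls, 5.62 and 4.99 in C26 cachectic, 4.40 and 4.51 in LLC controls and 5.01 and 4.06 in LLC cachectic muscle. The C26 controls were the lowest pair, and the LLC cachectic pair spanned the LLC controls and reached into the range of C26 cachectic muscle. Arntl rose 8.30-fold in C26 (3.05 ± 0.31, adjusted p = 0.000836) and was 0.08 ± 0.31 in LLC, a response difference of 2.97 ± 0.44 (adjusted p = 0.0245). The controls differed by -2.21 (adjusted p = 0.00131), and the cachectic groups by 0.77 (adjusted p = 0.1). Arntl occupies bases 113207465 to 113314126 of chromosome 7 on the plus strand. Its partner Clock was at 5.30 and 5.29 in C26 controls, 6.72 and 6.24 in C26 cachectic, 6.06 and 6.13 in LLC controls and 6.58 and 5.71 in LLC cachectic muscle, and rose in C26 (1.18 ± 0.24) and was 0.05 ± 0.24 in LLC.

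Other clock genes had response differences in both directions, 7 of the 21 measured above 0 and 14 below (4 and 17 after centring), and Arntl was the only one called. Of the 21, 6 rose and 7 fell in C26, against 1 and 1 in LLC, and the median response difference was -0.89 relative to all genes. At an unadjusted p under 0.05, 3 were higher and 9 lower in C26 on deposited values and 2 and 9 on centred values, beside 5.85% higher and 5.09% lower of all genes on the centred scale. Hlf, a clock-output factor, was at 4.00 and 3.90 in C26 controls, 2.57 and 2.54 in C26 cachectic, 3.17 and 2.93 in LLC controls and 2.85 and 3.10 in LLC cachectic muscle. It fell in C26 (-1.40 ± 0.18) and its response difference was -1.32 ± 0.25 (adjusted p = 0.0702, 0.0613 after centring). Nr1d2, the repressor REV-ERB-beta, was at 7.41 and 7.29, then 6.46 and 6.70 in C26, and 7.05 and 6.97, then 7.32 and 7.02 in LLC. Its response difference was -0.93 ± 0.18 (adjusted p = 0.0739, 0.0572 after centring, the smallest on that scale). Usp2, a deubiquitinase under clock control, had -1.11 ± 0.22 (adjusted p = 0.0766). Per3, a period repressor, fell in C26 (-1.11 ± 0.23) and was 0.13 ± 0.23 in LLC. Ciart, a repressor of the clock activators, fell in C26 (-1.94 ± 0.45) and was 0.14 ± 0.45 in LLC. Per2, another period repressor, was -0.70 ± 0.38 in C26 and 1.13 ± 0.38 in LLC, neither called, from controls at 5.32 and 5.42 in C26 and 2.85 and 2.86 in LLC (adjusted p = 0.00208). Dbp, an output factor that binds the D-box, fell in both models (-3.33 ± 0.29 and -1.81 ± 0.29). The controls of the models differed in 5 of the 21 clock genes, against 3.69% of all genes, with Arntl and Nr1d1, the repressor REV-ERB-alpha, lower and Per2, Hlf and Usp2 higher in C26. The part of the controls in the clock response difference was not tested.

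**Figure D3:**
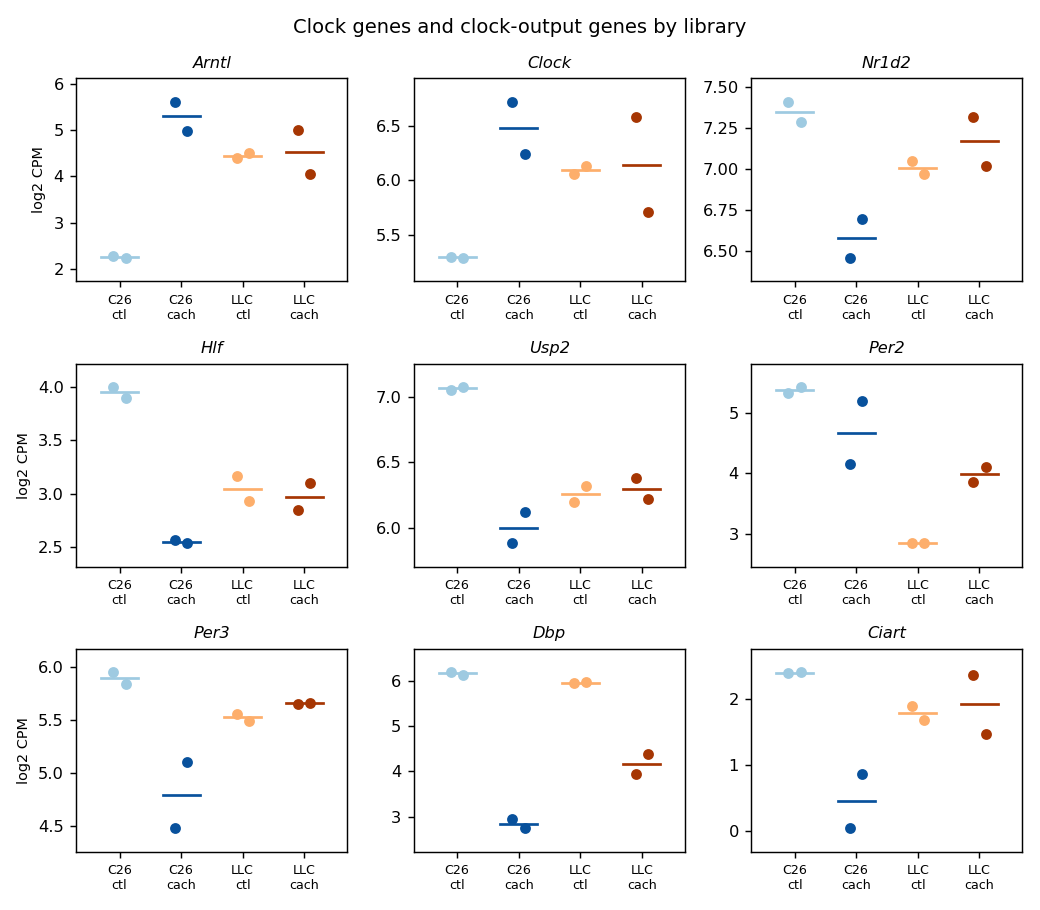
Log2 CPM of 9 clock and clock-output genes in the 2 libraries (points) and the mean (bar) of each group; vertical axes differ and do not start at 0. In Arntl and Clock the C26 controls are the lowest pair, in Hlf, Usp2 and Per2 they are the highest, and Dbp is lower in the cachectic pairs of both models.

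The bases before the start of clock genes and of called genes were searched on both strands, in the RefSeq windows of GRCm38.p6. The letters sought were the E-box CACGTG, the D-box core TTATGNAA, the STAT palindrome TTCNNNGAA and TGCNCNC, a loose form of the metal response core. These letters occur in 6.02%, 3.07%, 7.02% and 44.4% of all 32851 windows. Of 17 clock genes matched, 5 held an E-box and 2 a D-box. Of 9 called genes matched, 0 held an E-box, a D-box or a STAT palindrome, and 5 held a metal response core in this loose form. The windows of Usp2, Csnk1e, Per1 and Igf1 started 17899, 13423, 3732 and 2846 bases from the annotated start of the gene. They may therefore miss its main promoter. Ciart held 3 E-boxes, as 0.0609% of all windows did, and Per3 held 2 D-boxes. They are shown, 5' to 3' on the strand of the gene with the motif in capitals, because they carry the letters through which clock genes are known to be driven.
Ciart, chr3:95882229-95882478, minus strand, E-boxes in capitals: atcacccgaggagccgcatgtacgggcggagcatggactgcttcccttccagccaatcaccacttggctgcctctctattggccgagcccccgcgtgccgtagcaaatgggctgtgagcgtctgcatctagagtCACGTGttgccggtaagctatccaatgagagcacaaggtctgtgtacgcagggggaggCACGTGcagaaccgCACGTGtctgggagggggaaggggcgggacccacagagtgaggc
Per3, chr4:151044666-151044915, minus strand, D-boxes in capitals: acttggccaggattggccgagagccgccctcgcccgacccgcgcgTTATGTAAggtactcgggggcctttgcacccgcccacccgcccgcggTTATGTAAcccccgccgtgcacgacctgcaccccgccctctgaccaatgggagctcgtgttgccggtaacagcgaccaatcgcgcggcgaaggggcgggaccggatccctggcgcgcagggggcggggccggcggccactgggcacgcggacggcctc
A match is a description of these letters and shows no binding.

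Most acute-phase genes rose in C26 and fewer in LLC, and the response difference was called for none of them. Rises were called for 20 of the 22 measured genes of the acute phase and of STAT3 signalling in C26 (14 after centring) and for 7 in LLC, and none fell in either. Their median response was 1.63 in C26 and 0.83 in LLC relative to all genes, and the median response difference was 0.91, with 17 of 22 above 0, 0 called and 11 higher and 0 lower at an unadjusted p under 0.05 (8 after centring). Serpina3n, a secreted protease inhibitor, was at 1.27 and 1.89 in C26 controls, 7.28 and 6.51 in C26 cachectic, 0.47 and 1.58 in LLC controls and 3.27 and 2.48 in LLC cachectic muscle. It rose in both models (5.31 ± 0.47 and 1.85 ± 0.47), in C26 to a level above every LLC library, with a response difference of 3.46 ± 0.66 (adjusted p = 0.0702). Socs3, the feedback inhibitor of STAT3 signalling, rose in C26 (3.01 ± 0.55) and was 0.58 ± 0.55 in LLC. C3, the central complement component, rose in C26 (2.32 ± 0.48) and was -0.06 ± 0.48 in LLC. Tnfrsf12a, the receptor for the cytokine TWEAK, was 1.86 ± 0.55 in C26, a called rise that centring ended (adjusted p = 0.06), and -1.79 ± 0.55 in LLC, whose controls were at 3.79 and 5.28. Macrophage markers stood beside these genes: 11 of 15 rose in C26 and 1 in LLC (6 and 1 after centring). The response difference was called for 0 of the 15, with 2 higher and 0 lower at an unadjusted p under 0.05. Their summed level was 145 to 175 CPM in C26 controls and 341 to 346 in C26 cachectic muscle. In LLC it was 103 to 162 in controls and 127 to 214 in cachectic muscle. In bulk tissue more cells of a type and more RNA per cell cannot be told apart, and the part of macrophages in the acute-phase difference was not tested. Of 12 neutrophil markers only S100a9 and Csf3r were among the listed genes, and both rose in both models. S100a9 rose by 5.05 ± 1.13 in C26 and 6.19 ± 1.13 in LLC. Csf3r rose by 3.39 in C26 and 2.17 in LLC, so that the larger rise was in LLC for S100a9 and in C26 for Csf3r.

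Metallothioneins are small proteins that bind zinc and copper. Mt2, one of them, was at -0.56 and 0.63 in C26 controls, 6.95 and 6.97 in C26 cachectic, -0.23 and 0.24 in LLC controls and 3.23 and 0.74 in LLC cachectic muscle. It rose 122-fold in C26 (6.93 ± 0.89) and was 1.98 ± 0.89 in LLC (adjusted p = 0.161), where LLC cachectic 1 was high and LLC cachectic 2 was near the controls. The response difference of 4.94 ± 1.26 was not called (adjusted p = 0.121). Mt1 was at 9.50 and 8.64 in C26 cachectic and at 6.28 and 3.10 in LLC cachectic muscle, with a response difference of 3.96 ± 1.35 (adjusted p = 0.221). Slc39a14, a zinc importer, rose in C26 (1.99 ± 0.29) and was 0.72 ± 0.29 in LLC. Across the 14 metallothionein and zinc transport genes measured, the median response difference was 0.11 relative to all genes, with 5 higher and 0 lower at an unadjusted p under 0.05 (4 and 1 after centring). The window before Mt2 held 5 matches to TGCNCNC, where 4.65% of all windows hold 3 or more, and that before Mt1 held 1. Only the 250 bases of each window were searched, so matches outside them are not counted for either gene. The usual core is TGCRCNC, with R for A or G. Capitals mark every match to the looser letters, and GGGAGCA and TGCTCTC of Mt2 match only those. Both windows are shown, chosen after their values were seen, because metal-responsive sequences before these genes are the textbook route of their induction.
Mt2, chr8:94172368-94172617, plus strand, metal response cores in capitals: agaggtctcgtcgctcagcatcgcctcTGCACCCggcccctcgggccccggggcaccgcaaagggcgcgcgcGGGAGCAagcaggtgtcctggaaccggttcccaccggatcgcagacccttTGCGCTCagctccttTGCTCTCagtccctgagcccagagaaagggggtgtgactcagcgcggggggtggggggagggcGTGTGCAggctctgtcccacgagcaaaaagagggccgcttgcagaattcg
Mt1, chr8:94178839-94179088, plus strand, metal response core in capitals: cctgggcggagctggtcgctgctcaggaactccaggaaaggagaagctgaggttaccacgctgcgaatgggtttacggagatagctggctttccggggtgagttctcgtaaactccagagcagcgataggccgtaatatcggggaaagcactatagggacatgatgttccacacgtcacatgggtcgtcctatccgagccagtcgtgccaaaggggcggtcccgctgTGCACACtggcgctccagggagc

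Of 42 measured collagen and other matrix genes, 19 were called higher in C26 cachectic than in LLC cachectic muscle and 0 lower, beside 20.1% of all genes in either direction. In LLC 18 fell and 0 rose; in C26 8 fell and 8 rose (11 and 4 after centring). The median response was -1.20 in LLC and -0.50 in C26 relative to all genes, and the median response difference was 0.67, with 39 of 42 above 0 (37 after centring). At an unadjusted p under 0.05, 16 were higher and 1 lower in C26 (11 and 1 after centring), and the response difference was called for 0 of the 42. Serpinh1, the collagen chaperone HSP47, was at 5.33 and 5.67 in C26 controls, 5.91 and 5.76 in C26 cachectic, 5.62 and 5.98 in LLC controls and 4.81 and 4.56 in LLC cachectic muscle. It fell in LLC (-1.12 ± 0.18) and was 0.34 ± 0.18 in C26, a response difference of 1.45 ± 0.25 (adjusted p = 0.0506). Mmp14, a membrane-bound collagenase, rose in C26 (1.45 ± 0.15) and was 0.40 ± 0.15 in LLC. Bgn, the proteoglycan biglycan, fell in LLC (-1.09) and was 0.67 in C26, and Col15a1, a collagen next to basement membranes, fell in LLC (-2.23) and was -0.64 in C26. Col3a1, a fibrillar collagen, fell in LLC (-2.99 ± 0.61) and was -1.01 ± 0.61 in C26. Col1a1, the main fibrillar collagen chain, was at 9.01 and 9.24 in C26 controls, 6.30 and 5.76 in C26 cachectic, 8.79 and 9.06 in LLC controls and 4.01 and 5.43 in LLC cachectic muscle. It fell in both models (-3.09 ± 0.75 and -4.21 ± 0.75), and the 95% interval of its response difference ran from -1.17 to 3.40.

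Values for markers of cells that make matrix are set beside these. Markers of fibroblasts and fibro-adipogenic progenitors summed to 1730 and 1770 CPM in C26 cachectic muscle at the lowest and highest library and to 896 and 1270 in LLC cachectic muscle, against 1370 to 1720 and 1040 to 1230 in the controls, so that the LLC ranges overlapped. All 15 of them had response differences above 0 on deposited values (12 after centring), and none was called. Tendon markers summed to 333 to 396 CPM in C26 cachectic and 74.9 to 174 in LLC cachectic muscle, from 396 to 496 and 350 to 394 in controls. In them 5 of 11 fell in C26 and 7 in LLC. Their response differences lay above 0 in 8 of the 11 and below 0 in 3 (7 and 4 after centring), and none was called. At an unadjusted p under 0.05, 2 were higher and 0 lower in C26. Thbs4, a thrombospondin of tendon and muscle attachments, fell in LLC (-1.62 ± 0.36) and was 0.63 ± 0.36 in C26. Scx, the transcription factor of tendon cells, fell in LLC (-1.74) and was 0.06 in C26. Chad, another of these markers, went the other way, with a response difference of -1.31. The part of tendon and fibroblasts in the matrix difference was not tested. Among basement membrane genes, Col4a1, which shares its promoter region with Col4a2 and overlaps it on the opposite strand, rose in C26 (0.75 ± 0.23), a call that centring ended, and was -0.79 ± 0.23 in LLC, and 8 of 18 such genes were higher and 2 lower at an unadjusted p under 0.05 (5 and 3 after centring).

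**Figure D4:**
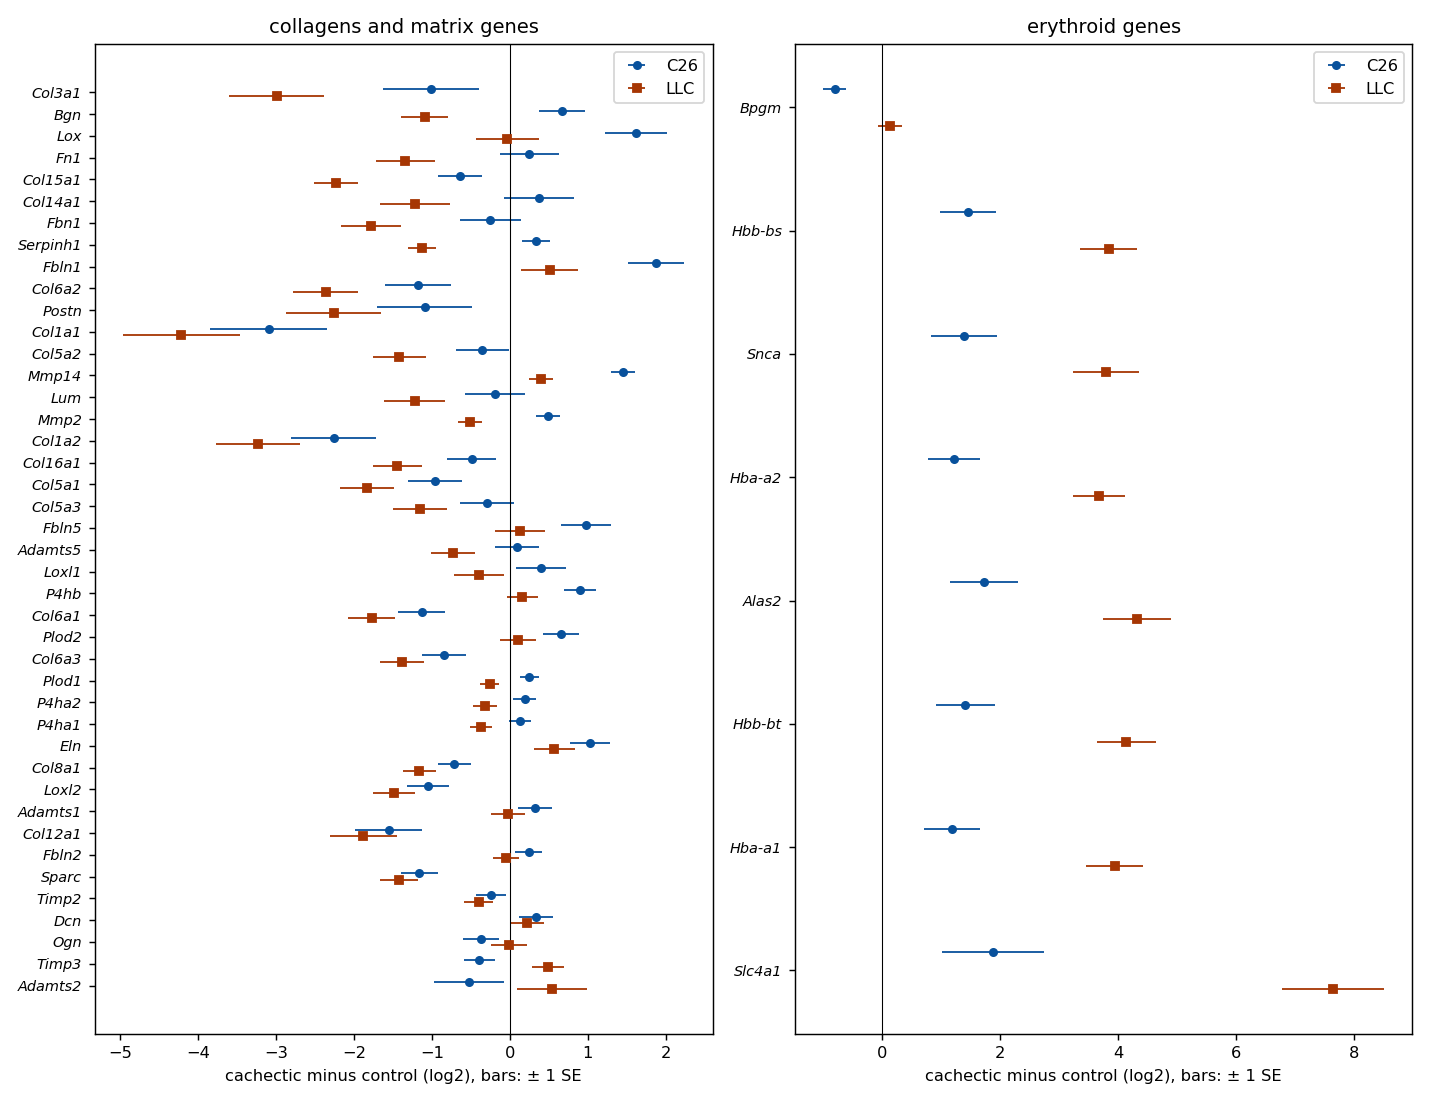
Cachectic minus control change (log2, ± 1 SE) in C26 (circles) and LLC (squares) for the 42 measured collagen and matrix genes and the 8 erythroid genes, ordered by the response difference with the highest at the top. Matrix genes lie further left in LLC for 39 of 42 genes, and erythroid genes lie further right in LLC for 8 of 8.

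No response difference was called among the 24 measured genes of TGF-beta family signalling. They had a median response difference of 0.00 relative to all genes, with 4 higher and 5 lower at an unadjusted p under 0.05 (2 and 6 after centring). Smad3, which carries TGF-beta and activin signals, was at 6.95 and 6.95 in C26 controls, 7.48 and 7.18 in C26 cachectic, 6.81 and 6.85 in LLC controls and 5.45 and 5.76 in LLC cachectic muscle. It fell in LLC (-1.22 ± 0.23), with a response difference of 1.60 ± 0.33 (adjusted p = 0.0766). Id1, a target of BMP signalling, was at 3.91 and 3.48, then 3.58 and 3.49 in C26, and at 1.99 and 2.27, then 3.86 and 3.36 in LLC. It rose in LLC (1.48 ± 0.24) up to the level of C26, whose controls were higher (adjusted p = 0.00225). Id3, of the same family, rose in LLC (1.11 ± 0.20) and was 0.17 ± 0.20 in C26. Mstn, which encodes the growth inhibitor myostatin, rose in LLC (0.95 ± 0.26, adjusted p = 0.0499) and was 0.10 ± 0.26 in C26. Among 28 genes of insulin-like growth factor and insulin signalling, 15 rose and 1 fell in C26 (6 and 2 after centring) and 2 rose and 1 fell in LLC. Their median response difference was 0.07 relative to all genes, with 22 of 28 above 0 and 6 below (15 and 13 after centring). At an unadjusted p under 0.05, 5 were higher and 0 lower in C26 (4 and 1 after centring). Besides Igf1 the list included Igfbp4, a binding protein (1.58 ± 0.31 in C26, 0.40 ± 0.31 in LLC), and Mtor, the kinase of the growth pathway (0.83 ± 0.17, 0.17 ± 0.17).

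Erythroid genes were the group that lay furthest the other way. All 8 measured had response differences below 0 and an unadjusted p under 0.05 on both scales, and none was called. In LLC 7 of 8 rose, and in C26 3 rose and 1 fell, of which only the fall of Bpgm was called after centring. The median response was 3.79 in LLC and 1.12 in C26 relative to all genes. Slc4a1, the anion exchanger of red cells, rested on 14 and 15 reads in C26 controls, 36 and 75 in C26 cachectic, 1 and 10 in LLC controls and 1395 and 534 in LLC cachectic muscle. It rose in LLC (7.64 ± 0.87), and its response difference was -5.76 ± 1.22 (adjusted p = 0.0801). Hba-a1, a haemoglobin alpha gene, was at 6.37 and 6.47 in C26 controls, 6.81 and 8.40 in C26 cachectic, 5.30 and 5.49 in LLC controls and 9.92 and 8.75 in LLC cachectic muscle. The LLC cachectic pair was the highest, with C26 cachectic 2 just below. Alas2, which starts haem synthesis in red cell precursors, rose in both models (1.73 ± 0.58 and 4.32 ± 0.58), in C26 on deposited values only. The haemoglobin genes are near-identical pairs between which reads can be split, and summed erythroid reads were 414 to 1190 CPM in C26 cachectic and 1690 to 3350 CPM in LLC cachectic muscle, against 309 to 328 and 196 to 218 in controls. Whether these reads come from blood in the sample was not tested.

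Interferon and fat-cell genes also had median response differences below 0, with none called. Of 31 interferon-stimulated genes, 0 rose or fell in C26 and 1 rose in LLC by limma on deposited values, and the median response difference was -0.73, with 0 higher and 3 lower at an unadjusted p under 0.05 (0 and 7 after centring). The gene that rose was Rsad2, the antiviral protein viperin (2.06 ± 0.44 in LLC, 0.48 ± 0.44 in C26). H2-K1, an MHC class I gene, had a response difference of -0.94 ± 0.35 (adjusted p = 0.267), but its level was 1.03 to 1.78 in the 4 C26 libraries and 5.44 to 6.08 in the 4 LLC libraries. MHC genes differ in sequence between these strains, and GRCm38 is the genome of C57BL/6J, so strain and level cannot be told apart there. Of 8 adipocyte markers 6 had response differences below 0, with a median of -1.51. Adipoq, the fat-cell hormone adiponectin, was at 0.72 and 2.10 in C26 controls, 1.09 and 1.28 in C26 cachectic, 0.47 and 0.48 in LLC controls and 2.02 and 2.47 in LLC cachectic muscle, and rose in LLC (1.77 ± 0.48).

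Falls of energy metabolism genes were called more often in C26 than in LLC, a difference in counts that was not itself tested. Of 78 nuclear genes of the respiratory chain, 38 fell in C26 and 2 in LLC (60 and 3 after centring), and none rose. Their median response was -0.79 in C26 and -0.48 in LLC relative to all genes. Single differences were small beside their error: 1 was higher and 0 lower at an unadjusted p under 0.05 (0 and 3 after centring), and Ndufa9, a complex I subunit, had -0.53 ± 0.28. Cox6a1 and Cox6a2, also of this list, went the other way on deposited values (0.47 and 0.43). After centring, response differences lay below 0 in 73 of the 78 and above 0 in 5. Of 24 genes of the tricarboxylic acid cycle, 16 fell and 1 rose in C26 and 0 fell and 2 rose in LLC. On deposited values 22 of the 24 had response differences below 0, and 9 did not overlap between models, beside 5.81% of all genes. After centring all 24 had response differences below 0, and 17 of 24 did not overlap between models, beside 13.2% of all genes. None was called, and 0 were higher and 1 lower at an unadjusted p under 0.05 (0 and 3 after centring). Cs, citrate synthase, fell in C26 (-0.64 ± 0.18) and was -0.27 ± 0.18 in LLC. Pcx, pyruvate carboxylase, was 1 of the 2 that rose in LLC (0.64).

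No response difference was called among 31 fast fibre and sarcomere genes. Of these, 8 fell and 1 rose in C26, 4 fell and 0 rose in LLC, and the median response difference was -0.40. Pvalb, the calcium buffer of fast fibres, was at 11.80 and 11.79 in C26 controls, 10.09 and 10.31 in C26 cachectic, 11.98 and 11.94 in LLC controls and 11.37 and 12.12 in LLC cachectic muscle. It fell in C26 (-1.59 ± 0.25), with a response difference of -1.37 ± 0.35 (adjusted p = 0.121). Tcap, the titin cap protein, fell in C26 (-1.12 ± 0.19) and was -0.25 ± 0.19 in LLC. Myh1, a fast myosin heavy chain, went the other way: it fell in LLC (-0.94 ± 0.19) and was -0.14 ± 0.19 in C26. Mettl21e and Mettl21c, lysine methyltransferases of muscle, fell in C26 (-3.82 ± 0.54 and -3.81 ± 0.53), and Mettl21c fell in LLC (-2.67 ± 0.53) while Mettl21e was -1.81 ± 0.54 there (adjusted p = 0.0586).

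Atrophy genes were called in both models, and their response differences were not. Fbxo32, the ubiquitin ligase atrogin-1, was at 7.69 and 7.35 in C26 controls, 10.62 and 11.04 in C26 cachectic, 8.49 and 7.93 in LLC controls and 11.89 and 10.03 in LLC cachectic muscle. It rose in both models (3.31 ± 0.56 and 2.75 ± 0.56), and its response difference of 0.56 ± 0.79 had a 95% interval from -1.16 to 2.27. Trim63, the ligase MuRF1, rose in C26 (2.23 ± 0.58) and was 1.65 ± 0.58 in LLC (adjusted p = 0.0903), with an interval of the difference from -1.20 to 2.35. LLC cachectic 1 was above LLC cachectic 2 in both ligases, and without LLC cachectic 2 both response differences turned negative (-0.37 and -0.38). Foxo1, a factor that drives these ligases, rose in C26 (1.33 ± 0.39, adjusted p = 0.0273), a call that centring ended (adjusted p = 0.077), and was 0.83 ± 0.39 in LLC, with an interval of the difference from -0.69 to 1.67. Foxo3, of the same family, rose in both models (1.28 ± 0.21 and 0.95 ± 0.21; interval of the difference -0.30 to 0.96), and Foxo6, another forkhead factor, fell in both (-3.40 ± 0.72 and -3.08 ± 0.72; interval -2.53 to 1.91). These intervals are wide enough to hold differences of 1 log2 unit or more in Fbxo32, Trim63, Foxo1 and Foxo6. Of 25 ligase and atrophy genes 8 rose and 1 fell in C26 and 5 rose in LLC. After centring 5 rose and 4 fell in C26 and 6 rose in LLC. Over these 25 the median response difference was -0.07, with 1 higher and 0 lower at an unadjusted p under 0.05 (1 and 1 after centring). Over 18 FoxO factors and targets it was -0.14, with none (0 higher and 1 lower after centring). Of 23 glucocorticoid-induced genes 11 rose and 1 fell in C26 and 6 rose in LLC, with median responses of 0.71 and 1.25 relative to all genes. Single members differed in both directions, with 4 higher and 3 lower in C26 at an unadjusted p under 0.05 (4 and 4 after centring). Glul, glutamine synthetase, rose in both (1.12 ± 0.29, a call that centring ended at an adjusted p of 0.0535, and 2.15 ± 0.29), a response difference of -1.04. Mt2 and Mt1, also of this list, went the other way (response differences 4.94 and 3.96). So did Cdkn1a, the cell-cycle inhibitor p21, which rose in C26 (3.57 ± 0.46) and was 1.12 ± 0.46 in LLC. Of 70 cytosolic ribosomal protein genes 67 rose in C26 and 26 in LLC, but 39 and 29 after centring, with a median response difference of 0.04.

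**Figure D5:**
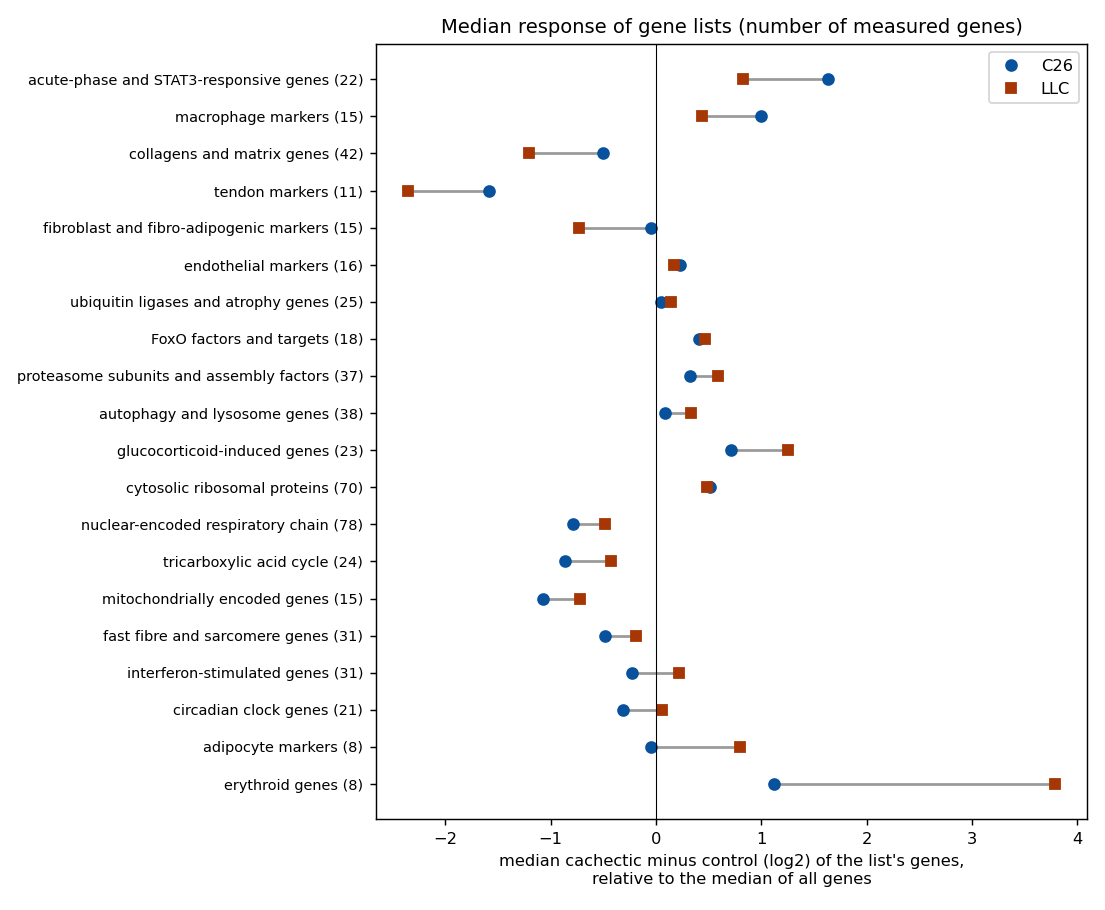
Median cachectic minus control change (log2, relative to the median of all genes) of 20 gene lists in C26 (circles) and LLC (squares), with the number of measured genes in brackets. The models lie close for ribosomal proteins, endothelial markers, FoxO genes and ubiquitin ligases, and furthest apart for erythroid genes, acute-phase genes, adipocyte markers, tendon markers and matrix genes.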

How the data were processed

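Total RNA was purified with Trizol and depleted of rRNA, per the labels' protocols. The submitters' processing notes name GRCm38, featureCounts 1.4.5 and limma; the sources used here name no aligner and do not give the handling of strand. Values were deposited by the authors as log2 CPM (counts per 1000000 reads in the table, each count raised by 0.5), since every value gave a whole number of reads (100%, tolerance 1e-04). Changes are thus relative to the library total, and those of low genes are understated. Depth was 28584279 to 46972882 reads per library.

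One limma fit (limma 3.58.1, R 4.3.3) of all 16 libraries in 8 groups, with a trend on expression, shared 1 estimate of the spread. The response difference is (C26 cachectic minus C26 control) minus (LLC cachectic minus LLC control). Tests were two-sided, with Benjamini-Hochberg adjustment over 12021 genes, and calls had an adjusted p under 0.05. All listed genes passed the filter (0 or more on the log2 scale in 2 libraries). List medians are relative to all genes and were not tested. The code was tested on simulated data.

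The comparison, the 45 lists and the rule for named genes were chosen with earlier results of these data known. The rule takes up to 12 genes per direction with the largest called differences, a mean log2 value of at least 1 and no overlap, passing over predicted genes, up to 4 genes per list with the smallest p, and a set of known cachexia genes. Igf2bp2 and Gm10605 were added, so that 13 of the 14 called genes are described (1 is not reported here), and further list members were named after their values were seen. Coordinates are GENCODE M21, and promoters are RefSeq windows of GRCm38.p6 cut to the 250 bases before the start. The closing section gives the alternatives tried.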

Additional observations from a re-analysis of the deposited data

Results flagged for a closer look

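The response to cachexia differed between C26 and LLC muscle by the test of the difference itself in 14 genes, each with a C26 response above the LLC response (log2, limma, deposited values), of which 13 are given here: Prg4 (3.56), Arntl (2.97), Igf2bp2 (2.55), Clu (2.37), Lama3 (1.97), Igf1 (1.81), Smtnl1 (1.76), Adamtsl5 (1.73), Gm10605 (1.69), Chid1 (1.59), Emilin1 (1.48), Gpr146 (1.21) and Jade1 (1.14). With each of the 8 libraries left out in turn, the difference ran from 3.07 to 4.05 for Prg4 and from 1.06 to 1.21 for Jade1. Its sign could not change in these fits, because in all 14 every C26 library difference lay above every LLC one. Whether a gene was called depended on which library was left out.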

How the results depend on the processing

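With each of the 8 libraries left out in turn, the number of genes called for the response difference ran from 0 to 309 (0 to 242 higher and 0 to 67 lower in C26), and on centred values from 0 to 325 (0 to 131 higher, 0 to 194 lower). Calls for the C26 response ran from 191 to 4795 and for the LLC response from 3 to 3711, and on centred values from 78 to 3116 and from 3 to 3575. Library weights gave 3 calls for the response difference (3 higher), 5721 in C26 and 84 in LLC. Median-centring, median gene-wise scaling and only the 8 libraries gave 0 calls (0 higher), the first with 1952 and the second with 2003 in C26. Quantile normalization gave 9 higher and 2 lower, and 2052 in C26. Voom weights gave 27 calls, 27 higher. Deviations of samples with the same number correlated between groups at r = -0.162 to 0.191, which with 2 libraries per group can neither show nor exclude pairing. A replicate block gave 17 calls, 16 higher and 1 lower, with 13 of the 14 kept. An adjusted p under 0.10 gave 111 calls (98 higher, 13 lower), 2106 in LLC, and after centring, chosen after the data were seen, 32 (11 lower) and 2272 in LLC. A log2 change of at least 1 left 874 calls in C26 and 398 in LLC, and all 14 for the difference. No trend, robust variances, vooma weights and a stricter filter gave 11 to 17 calls. Differences near 0 changed sign with a library left out: over these fits, centred ones included, Fbxo32 ran from -0.50 to 1.48, Trim63 from -0.51 to 1.53, Foxo1 from -0.24 to 1.04, Foxo3 from -0.09 to 0.55 and Foxo6 from -0.94 to 0.09; Myh4 did under quantile normalization (0.28). The cause of these changes was not tested. Median response differences of the lists named or plotted kept their sign in all 28 settings except those of tendon markers, FoxO genes, proteasome genes, ribosomal proteins, the TGF-beta family and neutrophil markers. With 2 libraries per group, the spread between replicates limits the precision, as does depth in genes of few reads.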
